A study of Homo sapiens with 6 samples.

Results

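Class I antigen presentation and the immunoproteasome were followed through 9 genes, HLA-B, HLA-C, HLA-E, B2M, TAP1, TAPBP, PSMB8, PSMB9 and PSMB10, which were taken by name from a table of raw RNA-seq counts for 20532 genes. All 9 were found, each as 1 row, and all 9 passed the filter on low counts that left 13988 genes for testing. The cells carry the label ACHN, a human renal carcinoma line that the labels class as clear cell renal cell carcinoma. They had been transduced with lentivirus to carry a short hairpin RNA stably, either a negative control hairpin (shCtrl, 3 libraries) or a hairpin against DNAJC2 (shDNAJC2, 3 libraries). DNAJC2 encodes a co-chaperone of the ribosome. Both groups therefore had the virus and a hairpin, and no untransduced cells were in the comparison. The labels call the libraries biological replicates and do not say whether they came from separate transductions, from clones or from pools, so the p-values measure the spread between these libraries, which may be technical.

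Class I molecules show peptides from inside the cell to CD8 T cells. Proteasomes cut proteins into peptides, the TAP transporter moves the peptides into the endoplasmic reticulum, tapasin (TAPBP) holds the empty class I molecule beside the transporter, and a heavy chain (such as HLA-B, HLA-C or HLA-E) folds there with the light chain beta-2 microglobulin (B2M). Under interferon, cells make the catalytic subunits PSMB8, PSMB9 and PSMB10, which take the places of PSMB5, PSMB6 and PSMB7 in the proteasome. IRF1 and NLRC5 are well-known activators of these genes.

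Total counts ran from 17491462 to 25760291 per library, and 3 counts, the most that a count of 0 allows for, correspond to 0.115 to 0.179 CPM, the unit of all levels here, in which counts are scaled to library size with edgeR's TMM factors. Such limits cover counting error only. Where 3 values are given for a group, they belong to libraries 1, 2 and 3 in that order. DNAJC2 lay at 69.8 to 86.5 CPM in the control libraries and at 38.5 to 51.2 CPM in the knockdown libraries, without overlap. Its fitted knockdown level was 60.1% of control. Over all 6 libraries edgeR did not call this target of the hairpin (adjusted p 0.429), whereas DESeq2 did (adjusted p 0.0364). A gene that did not pass in edgeR over all 6 libraries may therefore still differ. The control library shCtrl 3 stood apart from the other controls: more than 2-fold differences from shCtrl 1 were seen for 2080 tested genes in shCtrl 3 and for 48 in shCtrl 2. From shDNAJC2 1, shDNAJC2 2 and shDNAJC2 3 the library shCtrl 3 differed that far in 165, 78 and 571 genes. Among the knockdown libraries shDNAJC2 3 stood apart to a lesser degree, with 547 and 460 such genes against shDNAJC2 1 and shDNAJC2 2, which differed from each other in 114. The tests of the 9 genes are therefore given with and without shCtrl 3. That choice was made with the levels in view, so p-values without shCtrl 3 describe the remaining libraries and are no independent support. DNAJC2 in shCtrl 3, at 86.5 CPM, was the highest of all libraries. Of 9 renal epithelial markers, KRT18 (66.5 to 89.8 CPM) and KRT8 (30.9 to 41.7 CPM) were clearly present, PAX8 lay at 2.82 to 4.65 CPM, CDH16 was at 0 in all libraries, and PAX2 and LHX1 did not exceed 0.167 CPM. KRT19 (2.18 to 2.43 CPM under shCtrl, 0.875 to 1.51 CPM under shDNAJC2) and KRT7 (6.26 to 7.70 and 4.97 to 6.10 CPM) were lower in the knockdown libraries, without overlap. The endothelial marker KDR lay at 0.287 and 0.306 CPM in shCtrl 1 and shCtrl 2 and at 1.79 to 3.01 CPM in the other libraries, and CDH5 was at 0 in all. Of 10 blood and immune markers 7 stayed under 1 CPM in every library, and the pan-leukocyte gene PTPRC did not exceed 0.180 CPM. The summed level of those 10 was 81.9 to 96.6 CPM under shCtrl and 74.4 to 84.6 CPM under shDNAJC2. It was carried mostly by CD68 (71.0 to 92.3 CPM). CSF1R went the other way, at 1.44 to 2.26 CPM under shCtrl and 2.30 to 3.11 CPM under shDNAJC2. The collagen gene COL1A1, a fibroblast marker, lay at 2796 and 2785 CPM in shCtrl 1 and shCtrl 2 and at 571.8 to 1066 CPM in the other libraries, the same split of libraries as in TAP1, PSMB8 and PSMB9. The summed level of the 6 fibroblast markers was 1120 to 3980 CPM under shCtrl and 1030 to 1680 CPM under shDNAJC2, carried mostly by COL1A1 and COL1A2, while PDGFRA, LUM and DCN had log2 fold changes of 0.05, −0.06 and −0.20. The part of these marker levels in the results was not tested. RNA per cell and the share of cells that express a gene cannot be told apart in such bulk samples.

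Many class I genes carry short elements upstream of their starts that factors of the interferon response are known to bind, and these are shown here because several of the genes were highest in the same libraries. RefSeq promoter windows (GRCh38.p14) were matched by symbol for 8 of the 9 genes, all but HLA-E, with 10 windows in all. The 250 bases before each start were searched on both strands for the core of the interferon-stimulated response element (GAAA, any 2 bases, GAAA) and for GAANNGAAA, its shorter spacing, which can overlap the first. The first occurred in 4 of the 8 genes and in 3.02% of all 35116 windows of that length, and the second in 2 of the 8 and in 6.56% of all windows. Either was present in 6 of the 8 genes and in 9.08% of all windows. The search was set with the sequences in view, so these shares are descriptions. A gene was counted if any of its windows held a match, and TAP1 and PSMB8 have 2 windows each. The shares of all windows count single windows, so the units differ, here and below. In the following stretches, read 5′ to 3′ on the strand of the gene, capitals mark the matches, and matches on the opposite strand read as TTTC runs.
HLA-B: ctcccctgagTTTCACTTCttctcccaact
HLA-C: ctcccctgagTTTCACTTCtcccaacctgc
TAP1: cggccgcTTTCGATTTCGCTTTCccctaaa
TAPBP: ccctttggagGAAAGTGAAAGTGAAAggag
B2M: actctaaGAAAAGGAAACTGAAAacgggaa
PSMB10: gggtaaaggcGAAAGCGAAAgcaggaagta
TAP2: ggctgggGAAGCGAAAGCGAAAgctgcccg
The HLA-B and HLA-C elements (chr6:31357315-31357344 and chr6:31272224-31272253, minus strand) held the shorter spacing and lay 147 to 155 and 143 to 151 bases before the start. The TAP1 element (chr6:32853816-32853845, minus strand), 119 to 134 bases before the start, held 2 overlapping matches, as did those of TAPBP (chr6:33314079-33314108, minus strand) and B2M (chr15:44711366-44711395, plus strand). PSMB10 held 1 match, 12 to 21 bases before its start (chr16:67936852-67936881, minus strand). All distances refer to RefSeq starts. The GENCODE 29 models of TAP1, TAPBP and PSMB10 begin farther upstream, so the elements of these genes lie inside those models. Each window of the 8 genes overlapped GENCODE exons of its own gene. TAP2 (chr6:32838780-32838809, minus strand) encodes the partner chain in the transporter and is shown for comparison with TAP1. No match was present in the PSMB8 and PSMB9 windows. PSMB9 and TAP1 are read in opposite directions from starts 488 bases apart, and the TAP1 element lies between these starts. That element was outside the 250 bases searched for PSMB9. The kappaB consensus was found in 5 of the 8 genes (9.96% of all windows) and CCAAT, the sequence at the core of the Y box, in 5 (32.0%). The CCAAT matches of TAP1 and PSMB9, 245 to 249 and 239 to 243 bases before their starts, are 1 shared site counted for both genes. Whether a CCAAT match is part of a Y box was not tested.

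On GRCh38 (GENCODE 29) 7 of the 9 genes lie in the major histocompatibility complex (MHC) on chromosome 6. HLA-E (ENSG00000204592) spans 30489467 to 30494205, HLA-C (ENSG00000204525) 31268749 to 31272130, and HLA-B (ENSG00000234745) 31269491 to 31357188. PSMB8 (ENSG00000204264) spans 32840717 to 32844703, TAP1 (ENSG00000168394) 32845209 to 32853978, PSMB9 (ENSG00000240065) 32844136 to 32859585 and TAPBP (ENSG00000231925) 33299694 to 33314387. B2M (ENSG00000166710) lies on chromosome 15, 44711487 to 44718877, and PSMB10 (ENSG00000205220) on chromosome 16, 67934502 to 67937087. All are protein coding. The annotated HLA-B model overlaps HLA-C, and the PSMB9 model overlaps TAP1 and PSMB8 on the opposite strand. How the counting assigned reads in such overlaps, used strand or divided reads between similar HLA genes was not given in the sources used here, so the values of these genes are uncertain to that extent. The HLA genes vary between people, and how well reads of these alleles match the reference was not tested.

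Per kilobase of the principal transcript, B2M was the most abundant of the 9, at a mean of 786.9 CPM per kb over the 6 libraries (695.5 to 934.4). HLA-B followed at 479.5 (401.1 to 548.2) and HLA-C at 405.0 (353.8 to 463.0), and their ranges over libraries overlapped, although HLA-B was the higher in each library. HLA-E lay at 85.3 CPM per kb. TAPBP (62.0) and PSMB8 (50.2) came next, with overlapping ranges. TAP1 (33.6), PSMB9 (29.5) and PSMB10 (22.2) closed the order, and the range of PSMB9 (16.5 to 53.3) covered that of PSMB10 (17.6 to 27.0). The constitutive subunits PSMB5, PSMB6 and PSMB7 stood at 139.0, 161.9 and 198.3 CPM per kb, above the immunosubunit that replaces each of them.

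**Figure D1:**
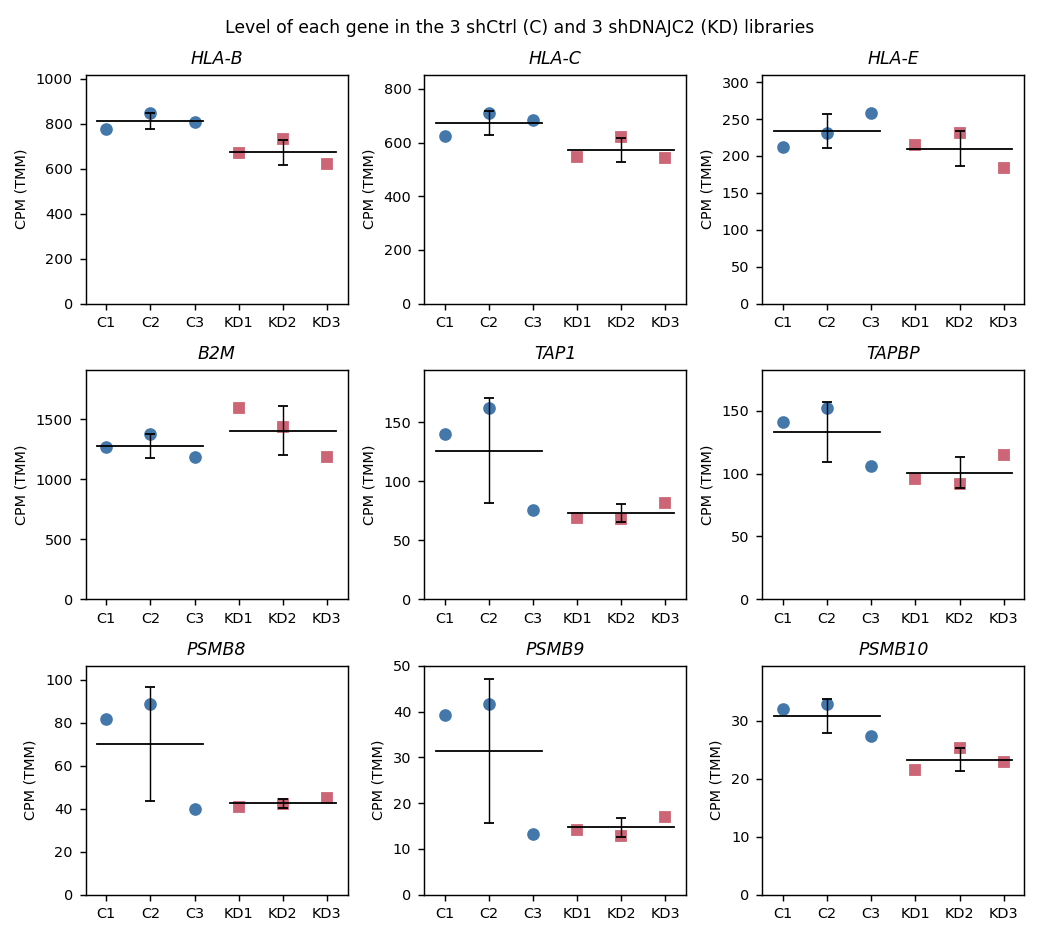
Level of the 9 genes in each library, as CPM scaled by TMM factors, on a separate axis from 0 for each gene. Circles are the shCtrl libraries (C1 to C3), squares the shDNAJC2 libraries (KD1 to KD3), bars the group means and whiskers 1 SD (n = 3). For TAP1, PSMB8 and PSMB9 the third control sits with the knockdown libraries, while for HLA-B and HLA-C it sits with the other controls.

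The peptide-supply genes TAP1, PSMB8 and PSMB9 showed the widest differences of the 9 between libraries, and these separated shCtrl 1 and shCtrl 2 from the other libraries rather than the control group from the knockdown group. PSMB9, the interferon-inducible subunit beta-1i, was measured as 39.2, 41.7 and 13.2 CPM under shCtrl, against 14.3, 12.9 and 17.0 CPM under shDNAJC2. Its highest library exceeded its lowest 3.23-fold, and the control library shCtrl 3 lay inside the knockdown range. The control mean was 31.4 ± 15.8 CPM (SD, n = 3) and the knockdown mean 14.7 ± 2.08 CPM (SD, n = 3), which edgeR's quasi-likelihood fit put at −1.09 ± 0.41 (SE) on the log2 scale, with an adjusted p of 0.429.

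TAP1, the transporter chain that is strongly induced by interferon, was measured as 140.1, 162.0 and 75.9 CPM under shCtrl, against 68.7, 68.4 and 81.9 CPM under shDNAJC2. PSMB8, subunit beta-5i, was measured as 82.0, 88.8 and 39.8 CPM under shCtrl, against 40.8, 42.1 and 44.8 CPM under shDNAJC2. In PSMB8 shCtrl 3 was the lowest of all 6 libraries, and in TAP1 it lay between shDNAJC2 2 and shDNAJC2 3. The log2 fold change was −0.79 (95% interval −1.43 to −0.14) for TAP1 and −0.72 (−1.40 to −0.04) for PSMB8, each with an adjusted p of 0.429 in edgeR. Without shCtrl 3, PSMB9, TAP1 and PSMB8 fell, with log2 fold changes of −1.45, −1.04 and −0.999 (edgeR adjusted p 2.46e-04, 5.15e-04 and 3.06e-04), to 36.6%, 48.5% and 50.0% of the level in shCtrl 1 and shCtrl 2. The level of shCtrl 3 was 32.6%, 50.3% and 46.6% of the mean of the other controls for the same genes, so leaving it out widened these differences.

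TAPBP and PSMB10 differed less between libraries, and they too were highest in shCtrl 1 and shCtrl 2. TAPBP, the gene of tapasin, was measured as 141.0, 152.1 and 106.5 CPM under shCtrl, against 95.4, 92.1 and 114.8 CPM under shDNAJC2, the same order of libraries as in TAP1, with shCtrl 3 between shDNAJC2 1 and shDNAJC2 3. PSMB10, subunit beta-2i, was measured as 32.1, 32.9 and 27.4 CPM under shCtrl, against 21.5, 25.4 and 23.0 CPM under shDNAJC2, without overlap. Their log2 fold changes were −0.40 (95% interval −0.79 to −0.01) and −0.41 (−0.71 to −0.11), and each had an adjusted p of 0.429 in edgeR. PSMB10 had the smallest unadjusted p of the 9 (0.0155, rank 366 of all genes tested). Without shCtrl 3, TAPBP and PSMB10 fell, with log2 fold changes of −0.54 and −0.48 (edgeR adjusted p 0.0089 and 0.0141).

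The heavy and light chain genes showed smaller differences, none of which passed the test. HLA-B, a classical heavy chain gene, was measured as 775.4, 848.1 and 808.6 CPM under shCtrl, against 667.8, 730.2 and 620.5 CPM under shDNAJC2. HLA-C, another classical heavy chain gene, was measured as 623.2, 711.2 and 685.2 CPM under shCtrl, against 547.2, 622.4 and 543.5 CPM under shDNAJC2, so that shCtrl 1 and shDNAJC2 2 were separated by less than 1 CPM. In both genes shCtrl 3 stood with the other controls and the groups did not overlap. The fitted knockdown level was 83.0% of control for HLA-B (log2 fold change −0.27, 95% interval −0.57 to 0.03) and 84.8% for HLA-C (−0.24, −0.54 to 0.06).

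HLA-E, whose product displays signal peptides of other class I chains to natural killer cells, was measured as 212.4, 230.8 and 258.5 CPM under shCtrl, against 214.3, 231.1 and 184.0 CPM under shDNAJC2, with overlap. B2M was measured as 1267, 1382 and 1187 CPM under shCtrl, against 1593, 1435 and 1186 CPM under shDNAJC2, and it was the single gene of the 9 with a positive log2 fold change (0.14, 95% interval −0.24 to 0.51). That value was 0.04 without shDNAJC2 1, 0.09 without shCtrl 3, 0.205 without shCtrl 2 and 0.26 without shDNAJC2 3. For HLA-E the log2 fold change was −0.16 (95% interval −0.47 to 0.16), and it was −0.06 without shDNAJC2 3 and −0.08 without shCtrl 3. For these heavy and light chain genes no fit passed, the one without shCtrl 3 included, where the edgeR adjusted p was 0.111 for HLA-B, 0.180 for HLA-C, 0.650 for HLA-E and 0.669 for B2M.

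**Figure D2:**
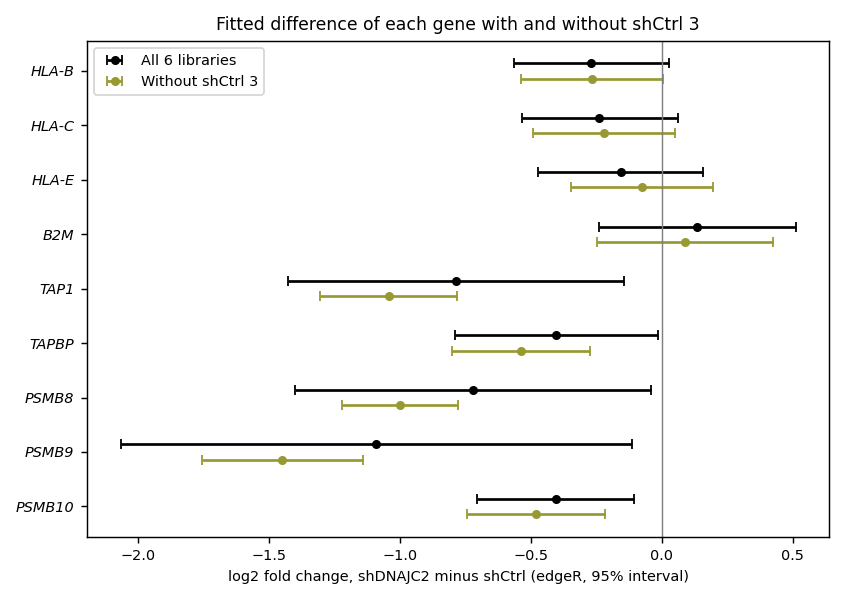
Log2 fold change of each gene, shDNAJC2 minus shCtrl, from edgeR, with 95% intervals. Black is the fit to all 6 libraries and olive the fit without shCtrl 3. PSMB9, at −1.09, lies farthest from 0 and B2M, at 0.14, on the other side of it. The intervals of TAP1, PSMB8 and PSMB9 narrow without shCtrl 3.

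Over all 6 libraries edgeR called 0 of the 9 genes at an adjusted p under 0.05, and it called 0.00% of all 13988 genes tested. At an unadjusted p under 0.05, 5 of the 9 were lower and 0 higher (TAP1, TAPBP, PSMB8, PSMB9 and PSMB10), against 7.33% of all genes lower and 4.0% higher. DESeq2 called 0 of the 9, with 0.207% of all genes called lower and 0.0429% higher, and limma-voom called 0, with 0.00% of all genes. The median log2 fold change was −0.40 for the 9 genes and −0.02 for all genes tested, and 8 of the 9 were negative, against 52.3% of all. The groups did not overlap for 3 of the 9, all lower in the knockdown, against 8.43% of all genes. Without shCtrl 3, edgeR called 5 of the 9 lower and 0 higher, against 17.0% of 14201 genes called lower and 17.8% higher. For 5 of the 9, shCtrl 3 and all 3 knockdown libraries lay below both other controls, a pattern that 28.9% of all genes shared. For 1 of the 9, PSMB8, shCtrl 3 was the lowest of all libraries, against 21.7% of all genes.

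The groups no longer separated in HLA-B, HLA-C and PSMB10 once a trend of level with GC content was removed from each library. GC content was 59.0%, 60.2% and 60.1% for these genes, 54.8% to 58.9% for HLA-E, TAP1, TAPBP, PSMB8 and PSMB9, and 39.4% for B2M, whereas the median gene tested had 49.3%. The smooth trend of log2 level with GC content at HLA-B was 0.07, 0.08 and 0.11 under shCtrl, against −0.19, −0.05 and −0.004 under shDNAJC2. With that trend removed from each library, the log2 fold change was −0.10 for HLA-B, −0.05 for HLA-C, −0.22 for PSMB10, −0.24 for TAPBP and 0.00 for B2M, and the groups overlapped for all 9 genes. TAP1, PSMB8 and PSMB9 kept values of −0.65, −0.64 and −0.99. At an unadjusted p under 0.05 in edgeR, 0 of the 9 were left, though TAP1 (0.0537), PSMB9 (0.057) and PSMB8 (0.0725) lay near that limit. The matching shares over all genes with the trend removed were not computed. Whether these losses are particular to the 9 genes is therefore not known. What produced the trend was not tested. It was fitted to these same libraries and itself differed between the groups at HLA-B. Its removal can therefore also take out differences that arose in another way.

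Ratios within a library do not depend on its scaling and compare partners of the pathway directly. The 6 ratios were tested with a two-sided exact permutation test of 3 libraries against 3, which cannot give a p below 0.1, with adjustment over the 6. PSMB8 gave 0.460, 0.490 and 0.222 counts per count of PSMB5 under shCtrl, against 0.234, 0.221 and 0.257 under shDNAJC2. PSMB9 gave 0.286, 0.307 and 0.0897 per count of PSMB6 under shCtrl, against 0.112, 0.0876 and 0.132 under shDNAJC2. For both pairs shCtrl 3 lay within the knockdown range, and the differences of log2 ratios, −0.64 and −0.87, had an exact permutation p of 0.3 and an adjusted p of 0.36. Without shCtrl 3 the differences were −1.004 and −1.45.

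PSMB10 gave 0.197, 0.189 and 0.132 per count of PSMB7 under shCtrl, against 0.0989, 0.113 and 0.130 under shDNAJC2, and here the groups did not overlap. The difference of log2 ratios was −0.59 (exact permutation p 0.1, adjusted p 0.3). With the GC trend removed it was −0.39 and the groups overlapped. The constitutive partners themselves differed little, with log2 fold changes of 0.00 for PSMB5, −0.05 for PSMB6 and 0.19 for PSMB7.

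**Figure D3:**
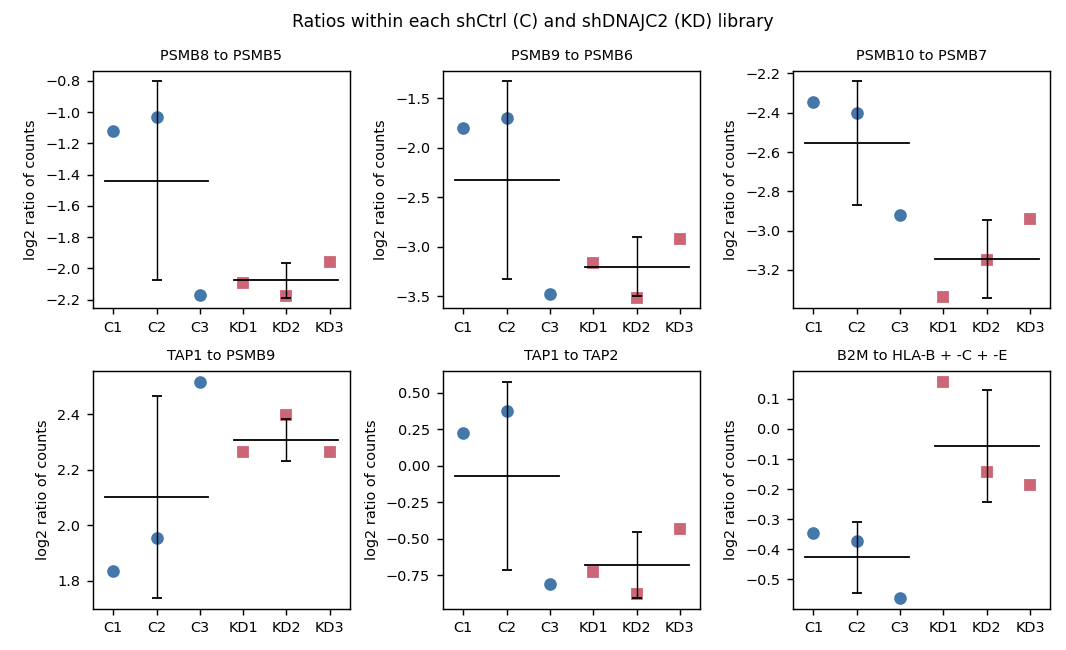
Log2 ratio of counts within each library for the 6 pairs, with circles for shCtrl (C1 to C3), squares for shDNAJC2 (KD1 to KD3), bars for group means and whiskers for 1 SD (n = 3). The axes do not start at 0. The groups are separate for PSMB10 to PSMB7 and for B2M to the heavy chains, and the third control joins the knockdown libraries for PSMB8 to PSMB5 and PSMB9 to PSMB6.

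TAP1 and TAP2, the partner chains of the transporter, differed in their order of libraries. TAP2 was measured as 120.2, 124.6 and 132.9 CPM under shCtrl, against 113.8, 125.6 and 110.3 CPM under shDNAJC2. TAP1 was measured as 1.17, 1.30 and 0.571 counts per count of TAP2 under shCtrl, against 0.604, 0.545 and 0.743 under shDNAJC2, a difference of −0.61 in log2 ratio (exact permutation p 0.3, adjusted p 0.36), which was −0.98 without shCtrl 3 and −0.38 without shCtrl 2. Counts of TAP1 per count of PSMB9, its divergent neighbour, were 3.56, 3.88 and 5.73 under shCtrl, against 4.80, 5.27 and 4.80 under shDNAJC2 (difference 0.21, exact permutation p 0.4). The difference was 0.41 without shCtrl 3, 0.07 without shCtrl 1 and 0.13 without shCtrl 2. That ratio was lowest in shCtrl 1 and shCtrl 2, where both genes were highest.

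B2M counts per count of HLA-B, HLA-C and HLA-E together were 0.787, 0.772 and 0.677 under shCtrl, against 1.11, 0.906 and 0.880 under shDNAJC2, higher in each knockdown library. The difference of log2 ratios was 0.37 (exact permutation p 0.1, adjusted p 0.3). With the GC trend removed the difference was 0.08, and the groups still did not overlap. The light chain transcript is the one with the low GC content among the 9.

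The other genes of the pathway followed several patterns. Of 19 listed, 18 were in the table and tested, and 0 passed over all 6 libraries. Of these, 13 had a negative log2 fold change (median −0.29), against 52.3% of all genes. Without shCtrl 3, 8 were called lower and 0 higher, against 17.0% and 17.8% of all genes. The non-classical gene HLA-F was measured as 10.04, 10.5 and 5.82 CPM under shCtrl, against 4.18, 5.09 and 5.21 CPM under shDNAJC2, without overlap, and had the smallest unadjusted p of the list (0.0133, log2 fold change −0.86).

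TAPBPL, which edits peptides on class I, was measured as 14.6, 14.6 and 11.3 CPM under shCtrl, against 8.30, 9.75 and 11.1 CPM under shDNAJC2. FCGRT, a class I-like receptor for IgG, was measured as 36.5, 36.9 and 34.7 CPM under shCtrl, against 29.8, 31.9 and 29.5 CPM under shDNAJC2. Neither overlapped between groups, and both are rich in GC (58.7% and 60.3%). The proteasome activator genes PSME1 and PSME2, also known as interferon-inducible, had log2 fold changes of −0.26 and −0.42, and PSME2 was measured as 175.9, 188.0 and 114.8 CPM under shCtrl, against 113.4, 120.8 and 123.1 CPM under shDNAJC2. CALR, the chaperone calreticulin of the loading complex, was measured as 1558, 1540 and 923.3 CPM under shCtrl, against 842.0, 879.6 and 1033 CPM under shDNAJC2. In PSME2 and CALR the control library shCtrl 3 stood with the knockdown libraries, as in TAP1. ERAP1, the peptide trimmer, had a log2 fold change of −0.09.

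Of 14 constitutive 20S proteasome genes, 0 passed over all 6 libraries, 12 were positive and the median was 0.09. Without shCtrl 3, 1 was called higher and 0 lower, against 17.8% and 17.0% of all genes. The 3 with the smallest p were PSMB1, PSMA5 and PSMA1, with log2 fold changes of 0.24, 0.24 and 0.16 and unadjusted p of 0.124, 0.130 and 0.180. The 3 immunosubunit genes were all negative, and whether they differ from the constitutive genes as a list was not tested.

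**Figure D4:**
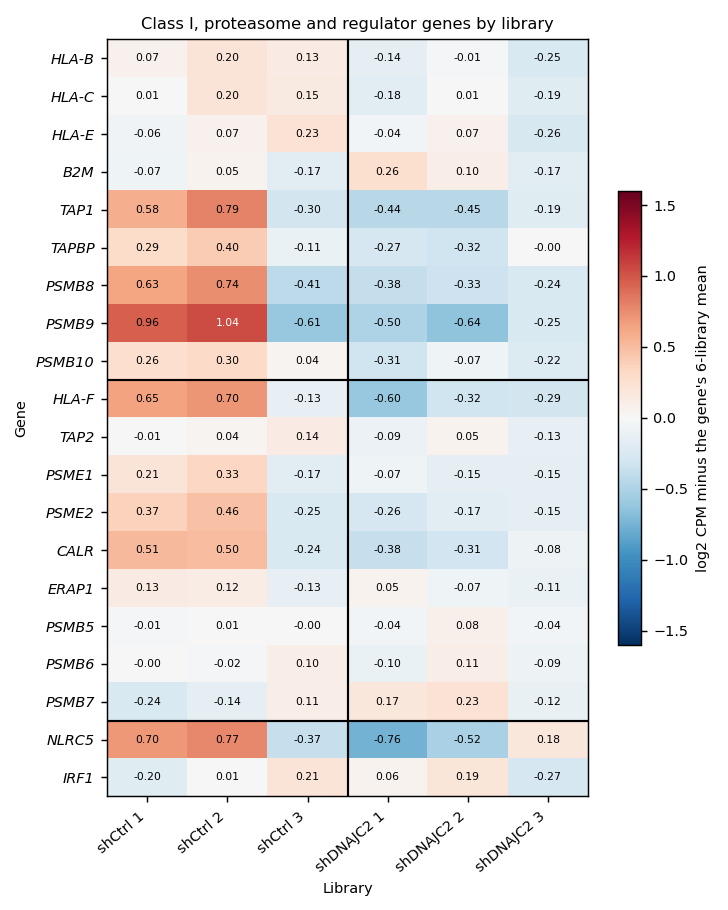
Log2 CPM of each gene minus its mean over the 6 libraries, red above and blue below, with the 9 genes on top, other class I and constitutive proteasome genes in the middle and the regulators NLRC5 and IRF1 at the bottom. PSMB9, at 0.96 and 1.04, is high in shCtrl 1 and shCtrl 2 and below its mean in the other libraries, while IRF1 is highest in shCtrl 3.

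Among 16 regulators of class I genes, all tested, 0 passed over all 6 libraries, with 10 negative and a median of −0.07. Without shCtrl 3, 6 were called lower and 3 higher, against 17.0% and 17.8% of all genes, so that the higher calls were near the share over all genes. NLRC5, the class I transactivator, was measured as 48.6, 51.3 and 23.2 CPM under shCtrl, against 17.6, 20.8 and 33.9 CPM under shDNAJC2. It was highest in shCtrl 1 and shCtrl 2 and highest among the knockdown libraries in shDNAJC2 3, as was TAP1. COL1A1 had this pattern too, whereas HLA-B, HLA-C, HLA-E and B2M did not. Levels highest in shCtrl 1 and shCtrl 2 were seen in 28.9% of all genes. The log2 fold change of NLRC5 was −0.77 (95% interval −1.62 to 0.09). Without shCtrl 3 NLRC5 fell, with a log2 fold change of −1.04 (edgeR adjusted p 0.0098).

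RFX5, which binds the X box of class I and class II promoters, was measured as 66.6, 72.0 and 34.6 CPM under shCtrl, against 32.7, 36.0 and 44.5 CPM under shDNAJC2. CIITA, the class II transactivator, was measured as 34.2, 33.0 and 32.8 CPM under shCtrl, against 27.8, 29.4 and 28.1 CPM under shDNAJC2, without overlap (log2 fold change −0.23). IRF1, which binds the interferon element directly, went another way, measured as 59.0, 68.3 and 78.3 CPM under shCtrl, against 70.5, 77.2 and 56.0 CPM under shDNAJC2.

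Most interferon transcripts were at or near 0. Of 21 genes of interferons, receptors and signalling 14 were tested, 0 passed over all 6 libraries, and without shCtrl 3 4 were called lower and 2 higher, where 17.0% of all genes were called lower and 17.8% higher. IFNG, IFNK and IFNL3 were at 0 counts in all libraries, which allows up to 0.179 CPM at the depth of the shallowest, and IFNB1 did not exceed 0.191 CPM. IFNE, an interferon of epithelia, was detected at 0.538 to 2.19 CPM, highest in shDNAJC2 3, with overlap between groups (log2 fold change 0.60, unadjusted p 0.323). IFNGR1, the ligand-binding chain of the receptor for interferon gamma, was measured as 26.9, 29.1 and 31.3 CPM under shCtrl, against 41.8, 35.7 and 32.4 CPM under shDNAJC2, without overlap (log2 fold change 0.33, unadjusted p 0.0411). Its GC content is 40.5%, low like that of B2M. PTPN2, a phosphatase that restrains JAK signalling, had a log2 fold change of 0.38 (unadjusted p 0.0646). USP18, an interferon-induced brake on the type I receptor, was measured as 67.9, 83.0 and 10.9 CPM under shCtrl, against 11.9, 12.5 and 25.1 CPM under shDNAJC2.

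Neighbouring MHC genes outside the lists also lay slightly below 0. Between HLA-E and TAPBP, the outermost of the 9 on chromosome 6, 87 tested genes from outside the lists had a median log2 fold change of −0.20, and 74 were negative, against −0.02 and 52.3% for all genes. Some of these are annotated models that overlap listed genes, such as ENSG00000248993 over HLA-DMB and HLA-DMA, or each other, such as MSH5 and MSH5-SAPCD1. The 87 are therefore not all independent or of other functions. Their median GC content was 56.6%, and with the GC trend removed their median was −0.09, with 56 negative. Of the 87, 0 passed over all 6 libraries, and without shCtrl 3 20 were called lower and 3 higher, again beside 17.0% and 17.8% of all genes. DDR1, a collagen receptor gene, had the smallest p of the neighbours and was measured as 63.4, 64.5 and 46.0 CPM under shCtrl, against 33.9, 37.9 and 43.5 CPM under shDNAJC2. PRRC2A (log2 fold change −0.45) and the valyl-tRNA synthetase gene VARS1 (−0.31) came next, at 61.7% and 62.6% GC. HLA-B, HLA-C and HLA-E, at −0.16 to −0.27, lay near the median of these neighbours, whereas TAPBP, PSMB8, TAP1 and PSMB9 lay below it. Neighbours of other functions lay as low, among them B3GALT4 (−1.48), DDAH2 (−1.18) and TNXB (−1.08), which were picked after their values were seen. Whether the class I genes stand apart from the neighbours was not tested.

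**Figure D5:**
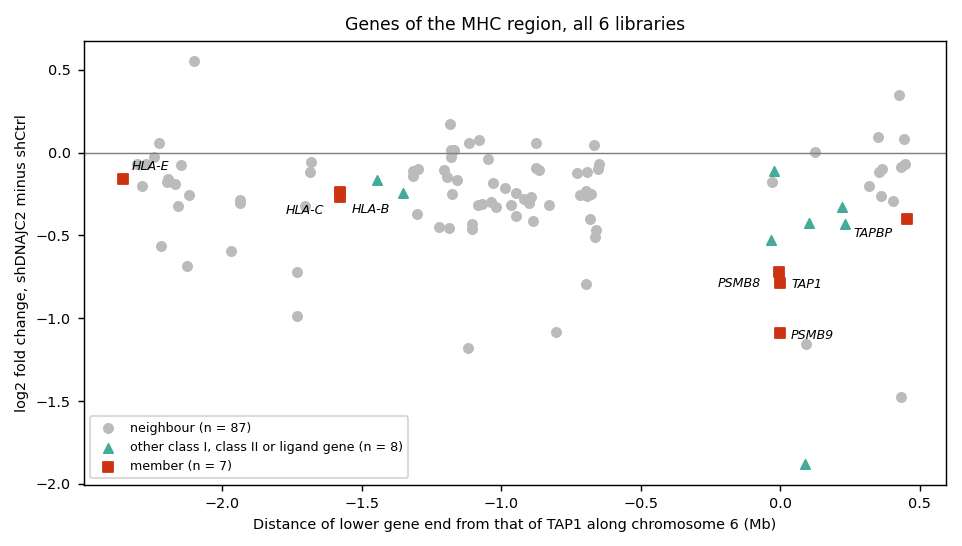
Log2 fold change over all 6 libraries against the distance of each gene's lower end from that of TAP1 along chromosome 6, in megabases. Red squares are 7 of the 9 class I genes, green triangles 8 genes of other lists and grey circles 87 neighbours. Most points lie a little below 0, at a median of −0.20 for the neighbours. PSMB8, PSMB9 and TAP1 lie lower, as do some neighbours elsewhere in the region, while TAP2 beside them is at −0.11.

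The genes whose levels over the 6 libraries ran closest to the mean of the 9 were sought among 10139 tested genes with a mean of at least 10 CPM, by root mean square distance of centred log2 CPM. The nearest were DPYSL3 (0.0335), PPP2R5D (0.0377), RBPMS (0.0394), ZFPM2 (0.0485) and KIF2C (0.0489). DPYSL3 was measured as 222.6, 226.3 and 160.7 CPM under shCtrl, against 151.3, 152.5 and 156.5 CPM under shDNAJC2. Of the 9 genes TAPBP (0.099) and PSMB10 (0.101) were closest to their common mean and PSMB9 (0.474) farthest.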

How the data were processed

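Paired-end sequencing of mRNA was done on 6 libraries, per the labels' protocols. The deposited table gave raw counts per gene: the values are integers and library sums differ, so no scaling by the authors is visible. GRCh38 (hg38) is the build named, per the submitters' processing notes. What aligner, counter, annotation release and strandedness applied is not given in the sources used here. Columns were matched to libraries by title. Of 20532 genes, 20255 were matched by identifier to GENCODE 29 for position, length and GC content of the principal transcript.

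The contrast of knockdown with control was fitted in R 4.3.3 by edgeR 4.0.16 (quasi-likelihood F test, two-sided, TMM factors, filterByExpr, Benjamini-Hochberg over all genes tested, threshold 0.05, group as the only term). Alternatives were RLE size factors, no filter, a filter at 10 CPM in 3 libraries, DESeq2 1.42.0, limma-voom (limma 3.58.1), a replicate block, removal of a lowess GC trend (span 0.3), and leaving out each library. Log2 ratios used a prior count of 2, and their values with the GC trend removed were added after seeing the data. The scripts were tested on simulated counts. Members, lists, ratios and tests were chosen with earlier results of these data known. Named were the 9 genes, a fixed set of partners and regulators (some are not reported here), up to 3 genes of smallest p per list, and the 5 nearest genes.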

Additional observations from a re-analysis of the deposited data

How the results depend on the processing

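The 9 genes kept the sign of their log2 fold changes under each alternative, and none passed except without shCtrl 3. The number of all genes called was 35 with DESeq2, where 4085 adjusted p-values were not given, and ran from 0 to 4945 when 1 library was left out. The number of the 9 called ran from 0 to 5, and in each case the higher value is the one without shCtrl 3. In the same way calls ran from 0 to 8 for other class I genes, 0 to 9 for regulators, 0 to 6 for interferon signalling, 0 to 1 for constitutive proteasome genes, 0 to 4 for class II genes and 0 to 10 for killer cell and checkpoint ligands. The cause was not tested. The median of the 9 ran from −0.48 without shCtrl 3 to −0.29 without shCtrl 2 and was −0.22 with the GC trend removed. With a replicate block it was −0.40, with 0 of the 9 and 0 of all genes called, and the smallest possible p of the ratio tests became 0.25. Same-numbered libraries deviated in opposite directions (r across 13988 genes −0.38, −0.52 and −0.66 for numbers 1, 2 and 3), and 0 of the 6 correlated best with its own number, so the numbers were not taken to pair the libraries. The PSMB9 to PSMB6 difference ran from −1.45 without shCtrl 3 to −0.56 without shCtrl 2.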

Other observations

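Of 12 MHC class II genes 6 were tested, all with negative log2 fold changes (median −0.43), and 0 passed over all 6 libraries. Without shCtrl 3, 4 were called lower and 0 higher, against 17.0% and 17.8% of all genes. HLA-DMB, a chain of the class II peptide editor, was measured as 11.4, 12.3 and 1.59 CPM under shCtrl, against 1.78, 1.44 and 3.54 CPM under shDNAJC2, so that shCtrl 3 lay with the knockdown libraries. HLA-DPB1 was measured as 10.1, 9.32 and 6.57 CPM under shCtrl, against 6.42, 5.92 and 6.92 CPM under shDNAJC2, and HLA-DMA was measured as 10, 11.1 and 7.16 CPM under shCtrl, against 6.37, 8.32 and 6.45 CPM under shDNAJC2. HLA-DRB1 and HLA-DQB1 were at 0 counts in all libraries, and HLA-DRA did not exceed 0.0598 CPM.

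Killer cell and checkpoint ligands were mixed in sign. All 15 were tested, 9 were positive and 6 negative, 0 passed over all 6 libraries, and the median log2 fold change was 0.28. Without shCtrl 3, 7 were called higher and 3 lower, against 17.8% and 17.0% of all genes. NECTIN2, a ligand of the receptors DNAM-1 and TIGIT, was measured as 126.3, 136.7 and 129.5 CPM under shCtrl, against 96.1, 109.5 and 102.7 CPM under shDNAJC2, without overlap, and CD276 was measured as 132.4, 140.7 and 124.8 CPM under shCtrl, against 97.8, 110.4 and 113.6 CPM under shDNAJC2. Their GC content is 65.0% and 61.0%. RAET1E, a ligand of the activating receptor NKG2D, was measured as 1.76, 1.83 and 2.64 CPM under shCtrl, against 3.50, 2.81 and 2.94 CPM under shDNAJC2, without overlap.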
